A study of Rattus norvegicus with 167 samples.

Results

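The 7 genes described here serve antigen presentation by class II molecules of the major histocompatibility complex (MHC), which in the rat is called RT1. They are RT1-Da, RT1-Db1, RT1-Ba and RT1-Bb, which encode class II chains, Cd74, which encodes the invariant chain, RT1-DMb, which encodes a chain of the peptide editor DM, and Cd86, which encodes a costimulatory ligand. The genes were chosen by name, with earlier results of these data known, from 14218 genes that had a probe set with a single gene symbol. Each was read from its probe set with the highest mean over all arrays. All 7 passed the filter on low values, which kept 12041 genes that lay above the 40th percentile of an array in at least 3 arrays. Cd74, RT1-Da, RT1-Db1, RT1-Ba and RT1-DMb lay above that percentile on every array, Cd86 on 164 arrays and RT1-Bb on 138.

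Affymetrix arrays had been run on spinal cord of adult female Wistar rats. In 3 arms the mid-thoracic cord was cut through and a 5 mm stretch was taken out. The gap received a chitosan tube carrying the nerve growth factor neurotrophin-3 (NT3) or a tube with nothing in it (ET). In the lesion control (LC) the gap stayed without a tube, and 3 cords were uninjured. NT3, ET and LC cord was sampled in pieces of 5 mm on days 1, 3, 10, 20, 30, 60 and 90. The pieces came from just rostral to the lesion, from the lesion site itself (from day 3 on, and in ET on day 3 alone), and from just caudal to it. The rostral arms held 21 NT3, 20 ET and 21 LC arrays, the caudal arms 21 each, and the lesion site 18 NT3, 3 ET and 18 LC arrays, in 55 groups of 3 and 1 group of 2. Whether the samples of a group came from separate animals is not stated in the labels, so the p-values speak for the spread among these samples only.

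Class II molecules are pairs of an alpha and a beta chain that carry peptides from endosomes to the cell surface, where CD4 T cells read them. The invariant chain fills the groove of the new pair and steers it to endosomes, DM exchanges its remnant for peptides, and CD86 on the same cell gives the T cell a second signal through CD28. In the healthy central nervous system class II molecules are scarce, and microglia, infiltrating macrophages and dendritic cells carry them after injury. RT1-Da and RT1-Db1 are the alpha and beta chain of the rat's D molecule, and RT1-Ba and RT1-Bb are those of its B molecule.

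The chain genes lie together on chromosome 20 of the rat assembly GRCr8. RT1-Da spans chr20:4515393-4520387, RT1-Db1 chr20:4550594-4560182, RT1-Ba chr20:4577057-4581650 and RT1-Bb chr20:4598475-4604118, with RT1-DMb at chr20:4695009-4702560. Cd74 lies at chr18:56527071-56536406 and Cd86 at chr11:77647565-77706178. Promoters of class II genes are known for an X box, bound by RFX factors, and a Y box, bound by NF-Y, on which the coactivator CIITA acts. Stretches of 90 bases of 5 promoters from RefSeq are shown, for the 4 chain genes and Cd74, because RT1-Da, RT1-Db1, RT1-Ba and Cd74 moved together in the arrays and RT1-Bb less so. RT1-Da is from chr20:4515303-4515392 (plus strand), RT1-Db1 from chr20:4560216-4560305 (minus strand), RT1-Ba from chr20:4576951-4577040 (plus strand), RT1-Bb from chr20:4604153-4604242 (minus strand) and Cd74 from chr18:56526957-56527046 (plus strand), each written 5′ to 3′ along its gene. Capitals mark the letters ACNGATG (part of an X box) and CTGATTGG (Y box) in the chain genes. In Cd74 they mark CCAAT, which is ATTGG on the other strand. Other forms of the X box were not searched, so RT1-Ba and Cd74, without ACNGATG, are not shown to lack one.
RT1-Da: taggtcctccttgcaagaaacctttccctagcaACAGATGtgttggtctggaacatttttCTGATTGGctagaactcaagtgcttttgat
RT1-Db1: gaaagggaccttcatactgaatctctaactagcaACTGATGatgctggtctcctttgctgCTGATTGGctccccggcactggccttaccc
RT1-Ba: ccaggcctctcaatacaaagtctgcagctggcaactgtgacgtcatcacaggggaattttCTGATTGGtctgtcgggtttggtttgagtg
RT1-Bb: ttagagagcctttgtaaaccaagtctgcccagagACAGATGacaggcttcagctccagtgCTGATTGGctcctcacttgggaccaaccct
Cd74: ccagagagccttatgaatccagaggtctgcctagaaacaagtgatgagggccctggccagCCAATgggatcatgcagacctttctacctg

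The letters were chosen after these promoters had been read, so their presence is a description. CTGATTGG stood in all 4 chain promoters and, on either strand, in 3.5% of 33469 RefSeq promoters of 300 bases. ACNGATG stood in RT1-Da, RT1-Db1 and RT1-Bb and in 10.2% of promoters. In these 3 genes ATTGG, which CTGATTGG contains, began 30, 29 and 29 bases after the start of ACNGATG. That order on 1 strand, at 25 to 35 bases, occurred in 28 promoters (0.0837%). ATTGG alone occurred in 37.5%, among them Cd74, and the promoter of Cd86 held none of these letters. No promoter is shown for RT1-DMb.

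Values are the authors' deposited log2 levels, and differences are on the same scale with the standard error (SE) of limma's fit. A gene was called where its p-value, adjusted by Benjamini-Hochberg over all 12041 genes, lay below 0.05. Levels of different genes come from different probes and are not set against each other. The cord markers Snap25, Mbp and Gfap were at least 12.8, 14.47 and 13.89 in every rostral and caudal array, while at the lesion site of LC their lowest levels were 8.3, 12.7 and 10.95. In bulk tissue, fewer cells of a type and less RNA per cell cannot be told apart.

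RT1-Bb needs a caution before its results. Its probe set in use and its second probe set hardly followed each other (Pearson's r = 0.07, across arrays of all groups). Both read at least 6 on 103 arrays, only the second did on 28, and only the first on 36. RT1-CE10, a class I gene of the same complex, was above 9 on 58 arrays and at 9 or below on 109. RT1-CE10 was above 9 on 35 of the 36 arrays with a low second probe set and on 0 of the 28 with a low first one. By group, 17 groups had RT1-CE10 above 9 on all arrays, 35 on none and 4 on some, so the difference runs along with day and treatment. Neither the cause of the split nor its part in the results was tested. The other 6 genes had either 1 probe set or a second one that followed the first, with r = 0.81 for RT1-Db1, 0.85 for RT1-Ba and 0.96 for Cd86. Another 2 RT1-Ba probe sets followed less (r = 0.28 and 0.37).

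Another 3 arrays stood apart from their groups, and results that change without them are named below. Uninjured replicate 2 had a gap of 2.29 between the 3-prime and 5-prime probe sets of beta-actin, a sign of RNA quality, beside 1.35 and 1.5 in the other uninjured cords. At the lesion site, LC day 20 replicate 5 had a gap of 0.69, beside 1.28 and 1.11. NT3 day 3 replicate 1 of that site averaged 9.49 over 7 neuron markers, beside 7.21 and 7.11.

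**Figure D1:**
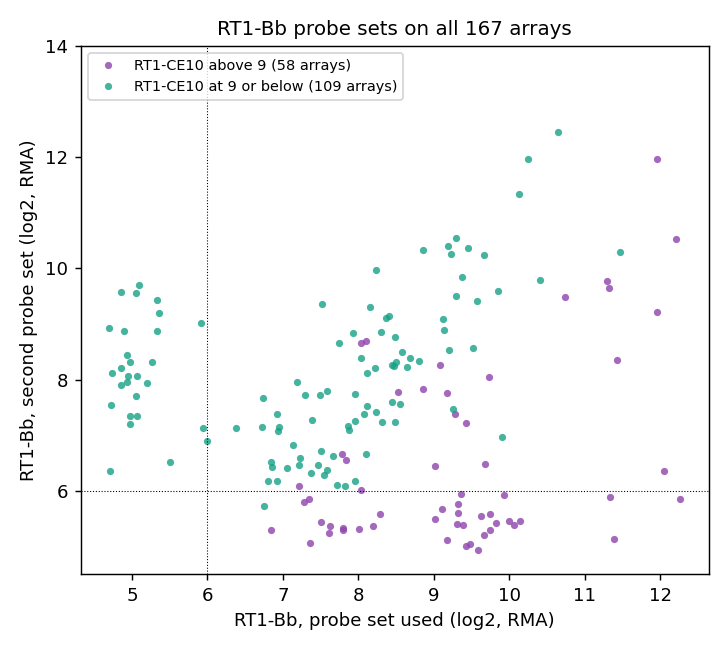
Each point is 1 array, with the level (log2, RMA) of the RT1-Bb probe set in use on the x axis and of the second probe set on the y axis, coloured by whether RT1-CE10 lay above 9 (58 arrays) or not (109 arrays); dotted lines mark 6. Of the 36 arrays with a low second probe set 35 had RT1-CE10 above 9, and of the 28 with a low first one 0 did.

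At the lesion site without a tube, RT1-Da, RT1-Db1, RT1-Ba and Cd74 differed by at most 0.7 from uninjured cord on day 3 and rose steeply by day 20. Cd74 read 10.22, 10.4 and 10.33 in LC on day 3, against 10.39, 9.89 and 10.48 in uninjured cord, and the groups overlapped. On day 20 it read 14.16, 14.15 and 13.78 in LC, with every array above every uninjured one. Its means in LC were 10.32, 12.15, 14.03, 13.81, 13.67 and 13.28 on days 3, 10, 20, 30, 60 and 90. The rise was therefore between day 3 and day 20, followed by a slow decline of the means.

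RT1-Db1, the beta chain of the D molecule, followed the same course. It had 12.95, 13.04 and 12.83 in LC on day 20, against 7.59, 7.5 and 8 in uninjured cord. Its alpha chain partner RT1-Da had 13.97, 13.52 and 13.87 in LC on day 20 and 9.46, 9.09 and 9.52 in uninjured cord. RT1-Ba, the alpha chain of the B molecule, had 13.11, 13.14 and 12.72 in LC on that day and 9.02, 8.33 and 9.06 in uninjured cord. In none of these genes did the groups overlap. On day 10, 1 of the 3 LC arrays was low in each of them, for instance 9.51 beside 10.97 and 10.85 in RT1-Db1.

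The editor gene RT1-DMb was high from the first day sampled. It had 11.43, 10.98 and 11.07 in LC on day 3 and 8.97, 9.2 and 9.24 in uninjured cord, a difference of 2.03 (SE 0.13, adjusted p = 1.87e-15). Cd86 had 7.78, 7.89 and 8.12 in LC on day 3 and 6.21, 6.33 and 6.2 in uninjured cord, a difference of 1.69 (SE 0.15). Both had their highest LC mean on day 20, at 11.97 and 9.43, and had come down to 10.56 and 7.88 by day 90.

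Against uninjured cord, 5 of 7 members were called higher at the lesion site of LC on day 3, where 40.8% of all genes were. RT1-Da (0.7, SE 0.2), RT1-Db1 (0.59, SE 0.24, adjusted p = 0.0271) and RT1-Bb (1.97, SE 0.65) were called beside RT1-DMb and Cd86, while RT1-Ba (-0.14, SE 0.23) and Cd74 (0.07, SE 0.17) were not. The call for RT1-Db1 ended without any of 4 single arrays (adjusted p up to 0.101) and without the arrays that stood apart (0.49, adjusted p = 0.088). It was also lost with the mean of its probe sets (0.34, adjusted p = 0.308) and with array weights (0.32, adjusted p = 0.159). Without uninjured replicate 1, RT1-Bb was lost too (adjusted p = 0.0612), which left 3 members called, and with RT1-CE10 as a covariate 2 were.

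On days 10 to 30 all 7 members were called higher in LC than in uninjured cord, where 41.9% of all genes were, and the median difference was 3.12 over the members and 0.07 over all genes. RT1-Db1 was 19.3-fold higher (4.27, SE 0.19, adjusted p = 2.64e-19), RT1-Da 12.8-fold, RT1-Ba 8.71-fold and Cd74 8.43-fold (3.08, SE 0.14). RT1-DMb was 5.19-fold and Cd86 7.98-fold higher. RT1-Bb, which read 4.71, 6.75 and 5.5 in uninjured cord, differed by 5.36 (SE 0.53). On days 60 and 90 all 7 were again called higher, against 40.4% of all genes, with 4.38 (SE 0.21) for RT1-Db1, 3.22 (SE 0.15) for Cd74, 1.72 (SE 0.11) for RT1-DMb and 1.9 (SE 0.13) for Cd86.

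Set against day 3 of the same arm, days 10 to 30 were higher for all 7 members, where 16% of all genes were. The differences were 3.68 (SE 0.19) for RT1-Db1, 3.26 (SE 0.19) for RT1-Ba, 1.31 (SE 0.13) for Cd86 and 0.35 (SE 0.1, adjusted p = 0.00722) for RT1-DMb. The call for RT1-DMb was lost without replicate 2 or replicate 3 of LC on day 3 (adjusted p up to 0.0867). On days 60 and 90 against days 10 to 30, only RT1-DMb (-0.66, SE 0.08) and Cd86 (-1.1, SE 0.1, adjusted p = 1.66e-10) were called lower, 2 of 7 members against 21.7% of all genes. The chains and Cd74 lay between -0.16 and 0.15 and were not called, though Cd74 was called higher with array weights (0.26, adjusted p = 0.0262). Days 10 to 30 include day 10, when Cd74 averaged 12.15, beside 14.03 on day 20 and 13.28 on day 90. The decline from day 20 was not tested alone.

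**Figure D2:**
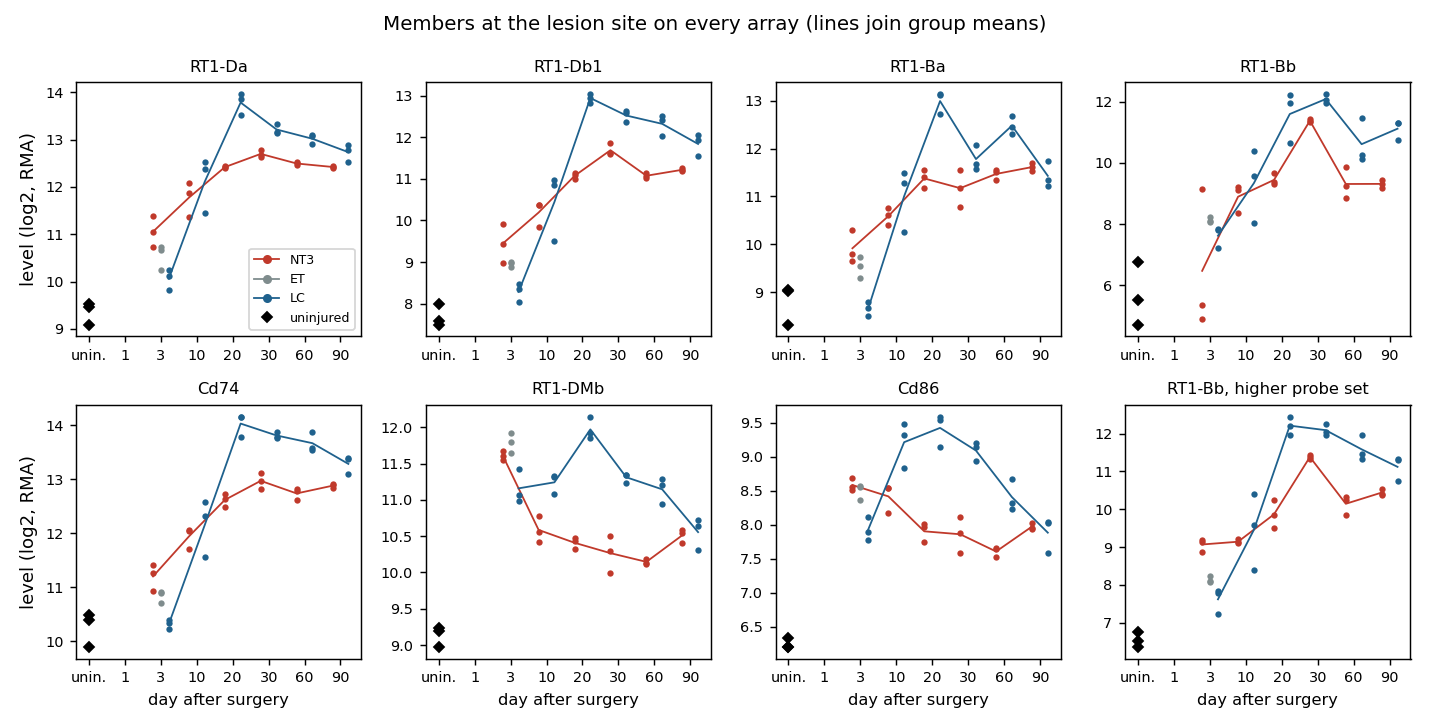
Each panel shows 1 gene at the lesion site, with the level (log2, RMA) of every array on the y axis and the day after surgery on the x axis (days evenly spaced, uninjured cord at the left); lines join group means of NT3, ET and LC. The chains and Cd74 climb in LC between days 3 and 20, NT3 lies above LC on day 3 in all genes but RT1-Bb, and below it from day 20 to day 60 in all 7; the last panel takes the higher of the RT1-Bb probe sets on each array.

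In the cord on either side, RT1-Da, RT1-Db1, RT1-Ba and Cd74 rose less than at the lesion site, RT1-DMb was high early, and RT1-Bb had no steady course. Rostrally, Cd74 read 10.42, 9.81 and 10.45 in LC on day 3, which overlaps uninjured cord. On day 20 it read 11.35, 12.39 and 12.34 there, all above uninjured cord, and its mean of 12.02 was the highest of the 7 days. Caudally its highest LC mean was 12.23, also on day 20, from 11.75, 11.98 and 12.95. RT1-DMb had its highest mean in LC on day 3, with 11.83, 11.38 and 11.81 rostrally and 11.5, 11.6 and 11.66 caudally, and a lower mean on every other day.

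Rostral LC on days 1 and 3 had 5 of 7 members higher than uninjured cord, against 36% of all genes. RT1-DMb (1.93, SE 0.09) and Cd86 (1.82, SE 0.12, adjusted p = 1.91e-18) led, RT1-Db1 (0.71, SE 0.24) and RT1-Da (0.53, SE 0.22) were called too, and RT1-Bb differed by 2.25 (SE 0.72). With the mean of its probe sets RT1-Db1 was not called (0.36, adjusted p = 0.122). RT1-Ba (-0.23, SE 0.28) and Cd74 (0.12, SE 0.24) were not called. RT1-Da lost its call without uninjured replicate 2 (0.4, adjusted p = 0.158) or without replicate 3 of LC on day 1 or on day 3. With RT1-CE10 as a covariate 2 members were called. Caudal LC on these days had 3 of 7 members higher, against 34.3% of all genes, namely RT1-DMb (1.84, SE 0.11), Cd86 (1.85, SE 0.13) and RT1-Bb (1.87, SE 0.7).

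All 7 members were called higher on both sides in the averages of days 10 to 30 and of days 60 and 90. Day 10 was not tested alone. On that day LC Cd74 ranged from 9.96 to 11.36 rostrally and from 10.13 to 10.66 caudally, overlapping uninjured cord (9.89 to 10.48). RT1-Db1, RT1-Ba and RT1-Bb also overlapped it on both sides, while RT1-Da, RT1-DMb and Cd86 lay above it on every array. On days 10 to 30, where 29.1% of all genes rostrally and 29.2% caudally were higher, RT1-Da differed by 1.64 (SE 0.2) rostrally and 1.75 (SE 0.23) caudally. Cd74 differed by 1.24 (SE 0.23) and 1.34 (SE 0.24), and Cd86 by 2.76 (SE 0.11) and 2.95 (SE 0.13), rostral first. Days 60 and 90 had all 7 higher against 24.9% of all genes rostrally and 25.2% caudally, with Cd74 at 1.48 (SE 0.24) and 1.65 (SE 0.25) and Cd86 at 2.71 (SE 0.12) and 3.04 (SE 0.13). RT1-Bb was called in all of these but lost the call without uninjured replicate 1 in each segment and period (adjusted p from 0.0578 to 0.198), and on days 10 to 30 rostrally also without uninjured replicate 3 or replicate 3 of LC on day 10 or day 20. Caudally on days 1 and 3 it was lost without uninjured replicate 3 as well. With RT1-CE10 as a covariate, RT1-Bb was lost in all 3 periods on both sides (adjusted p from 0.383 to 0.879), and RT1-Ba rostrally on days 10 to 30 (1.05, adjusted p = 0.0978) and on days 60 and 90 (1.25, adjusted p = 0.0952).

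Within LC, days 10 to 30 were higher than days 1 and 3 for 5 of 7 members on both sides, against 21.7% of all genes rostrally and 19.9% caudally. The 5 were RT1-Da, RT1-Db1, RT1-Ba, Cd74 and Cd86. Cd74 differed by 1.12 (SE 0.18) rostrally and 1.37 (SE 0.19) caudally, and RT1-DMb by -0.06 (SE 0.07) and 0.06 (SE 0.08), which was not called. RT1-Bb differed by -0.58 (SE 0.54, adjusted p = 0.383) rostrally. With the higher of its probe sets on each array, that value turned to 0.79 (adjusted p = 0.00255). Later, RT1-DMb alone was lower on days 60 and 90 than on days 10 to 30, by -0.38 (SE 0.07) rostrally, against 8.27% of all genes, and by -0.26 (SE 0.08, adjusted p = 0.0231) caudally, against 11.8%. The caudal call was lost without any one of replicate 3 of day 10, replicate 2 of day 30, replicate 3 of day 60 and replicate 1 of day 90 (adjusted p up to 0.104).

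**Figure D3:**
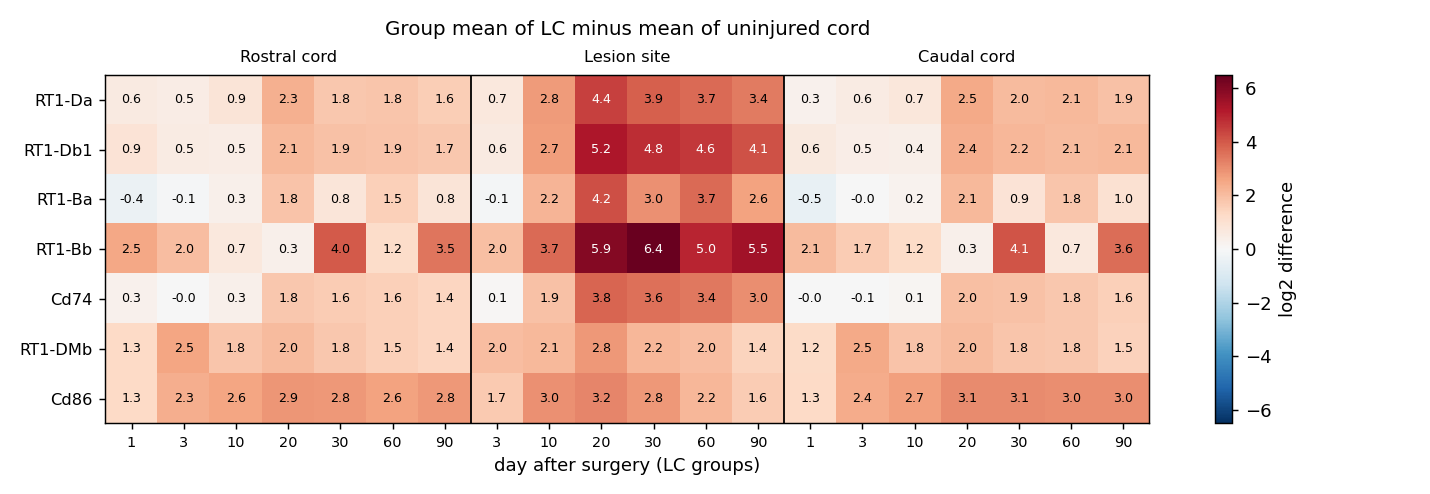
Colour and number give the mean of each LC group minus the mean of the 3 uninjured cords (log2) for the 7 genes in rows, by segment and day after surgery in columns. The chains and Cd74 are darkest at the lesion site from day 20, RT1-DMb peaks on day 3 in rostral and caudal cord, and Cd86 declines at the lesion site while it stays high on both sides; RT1-Bb is uneven from day to day.

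The lesion site of LC was compared with the mean of its rostral and caudal neighbours on the same days. On day 3, 2 of 7 members were lower at the lesion site, RT1-DMb (-0.47, SE 0.11) and Cd86 (-0.7, SE 0.16, adjusted p = 0.000183), against 29.8% of all genes. The chains and Cd74 lay between -0.09 and 0.18 and were not called. On days 10 to 30, 6 of 7 were higher at the lesion site, where 45.3% of all genes were. RT1-Db1 was 6.51-fold higher there (2.7, SE 0.16), RT1-Ba 4.26-fold, RT1-Da 3.96-fold and Cd74 3.45-fold (1.79, SE 0.15). RT1-DMb was 1.41-fold higher and Cd86 was not called (0.14, SE 0.09), though it was with array weights (0.23, adjusted p = 0.00201).

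By days 60 and 90 Cd86 had turned lower at the lesion site than beside it (-0.97, SE 0.11, adjusted p = 1.06e-10), 1 of 7 members against 33.4% of all genes. The 4 chains and Cd74 were still higher, 5 of 7 members against 42.8% of all genes, with 2.44 (SE 0.2) for RT1-Db1 and 1.66 (SE 0.19) for Cd74. RT1-DMb (0.16, SE 0.08, adjusted p = 0.064) was not called, but it was in one fit of all arrays (adjusted p = 0.0433), with array weights (0.0386) and with RT1-CE10 as a covariate (0.0138). Over all 7 days, 0 of 7 members differed between rostral and caudal LC, where 0.191% of all genes did. The differences, rostral minus caudal, lay between -0.18 for Cd86 and 0.07 for RT1-Bb, and at an unadjusted p only Cd86 fell below 0.05.

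With the NT3 tube every member but RT1-Bb had a higher mean than LC at the lesion site on day 3, and all 7 had lower means on days 20, 30 and 60. On day 3 Cd74 read 10.93, 11.41 and 11.26 with NT3 and 10.92, 10.89 and 10.7 with ET, against 10.22, 10.4 and 10.33 in LC. RT1-Ba read 9.65, 10.3 and 9.81 with NT3 and 9.74, 9.55 and 9.3 with ET, against 8.68, 8.8 and 8.51 in LC. All NT3 and ET arrays of both genes lay above all LC arrays.

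Called higher with NT3 on day 3 were 6 of 7 members, where 7.97% of all genes were, and the median difference was 0.88 over the members and 0 over all genes. RT1-Ba (1.26, SE 0.23, adjusted p = 0.000254), RT1-Db1 (1.16, SE 0.24), RT1-Da (0.99, SE 0.2), Cd74 (0.88, SE 0.17), Cd86 (0.65, SE 0.15) and RT1-DMb (0.45, SE 0.13) were the 6. RT1-DMb lost its call without replicate 2 of NT3 or of LC (adjusted p up to 0.0948) or with RT1-CE10 as a covariate (0.0941), and RT1-Db1 with the mean of its probe sets (0.8, adjusted p = 0.06). RT1-Bb, at 4.9, 9.14 and 5.36 with NT3 and 7.22, 7.79 and 7.84 in LC, was not called (-1.15, SE 0.65). With the higher of its probe sets it had 8.87, 9.14 and 9.19 with NT3, all above LC, and the difference turned to 1.45 (adjusted p = 0.000307). RT1-CE10, which differed by -1.2 (SE 0.42), was 7.52, 7.98 and 8.12 with NT3 and 7.9, 9.26 and 10.06 in LC.

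The empty tube was sampled at the lesion site on this day alone. With ET, 5 of 7 members were higher than in LC, against 7.41% of all genes. RT1-Ba differed by 0.87 (SE 0.23), RT1-DMb by 0.63 (SE 0.13, adjusted p = 0.00062), Cd86 by 0.57 (SE 0.15), RT1-Db1 by 0.67 (SE 0.24) and Cd74 by 0.52 (SE 0.17). RT1-Da (0.48, SE 0.2, adjusted p = 0.0757) and RT1-Bb (0.52, SE 0.65) were not called. Without ET replicate 1, ET replicate 2 or LC replicate 1, both RT1-Db1 and Cd74 were lost and 3 members were called. RT1-Db1 was also lost without ET replicate 3 or LC replicate 2 (adjusted p up to 0.144), and Cd74 without LC replicate 3 (adjusted p up to 0.0884). With RT1-CE10 as a covariate, RT1-Db1 (adjusted p = 0.0504), RT1-Ba (0.053), Cd74 (0.0573) and Cd86 (0.0701) were lost and RT1-Da was gained (0.0238). RT1-CE10 averaged 7.78 with ET and 9.07 in LC. In one fit of all arrays RT1-Db1 (0.0692) and Cd74 (0.14) were lost, and RT1-Db1 also with the mean of its probe sets (0.103). NT3 and ET share the LC arrays, so their differences are not independent.

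On day 20 the order was the reverse. Cd74 read 12.73, 12.48 and 12.64 with NT3, against 14.16, 14.15 and 13.78 in LC. RT1-Db1 read 11.13, 10.99 and 11.09 with NT3, against 12.95, 13.04 and 12.83 in LC. RT1-DMb read 10.43, 10.33 and 10.47 with NT3, against 11.92, 12.15 and 11.85 in LC, and Cd86 8.01, 7.74 and 7.96 with NT3, against 9.54, 9.59 and 9.14. None of these groups overlapped.

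Day by day, NT3 arrays were all above LC arrays on day 3 in 6 members, while 16% of all genes had that order. On day 10 they were all below in 2 members, RT1-DMb and Cd86, against 9.93% of all genes. On days 20, 30 and 60 they were all below in 7 of 7 members, against 25.1%, 13.6% and 28.7% of all genes. On day 90 this held for RT1-Da, RT1-Db1, RT1-Bb and Cd74, 4 members against 31% of all genes, and the groups overlapped in RT1-Ba, RT1-DMb and Cd86. The second RT1-Bb probe set went the other way on day 90, at 10.37, 10.54 and 10.41 with NT3 and 9.48, 9.77 and 9.64 in LC. Its groups overlapped on days 30 and 60, while on day 20 it too was lower with NT3 in all arrays. Cd74 still read 12.83, 12.92 and 12.89 with NT3 on day 90, against 13.09, 13.37 and 13.39 in LC, while Cd86 had 7.95, 8.03 and 7.94 with NT3 and 7.58, 8.04 and 8.03 in LC.

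**Figure D4:**
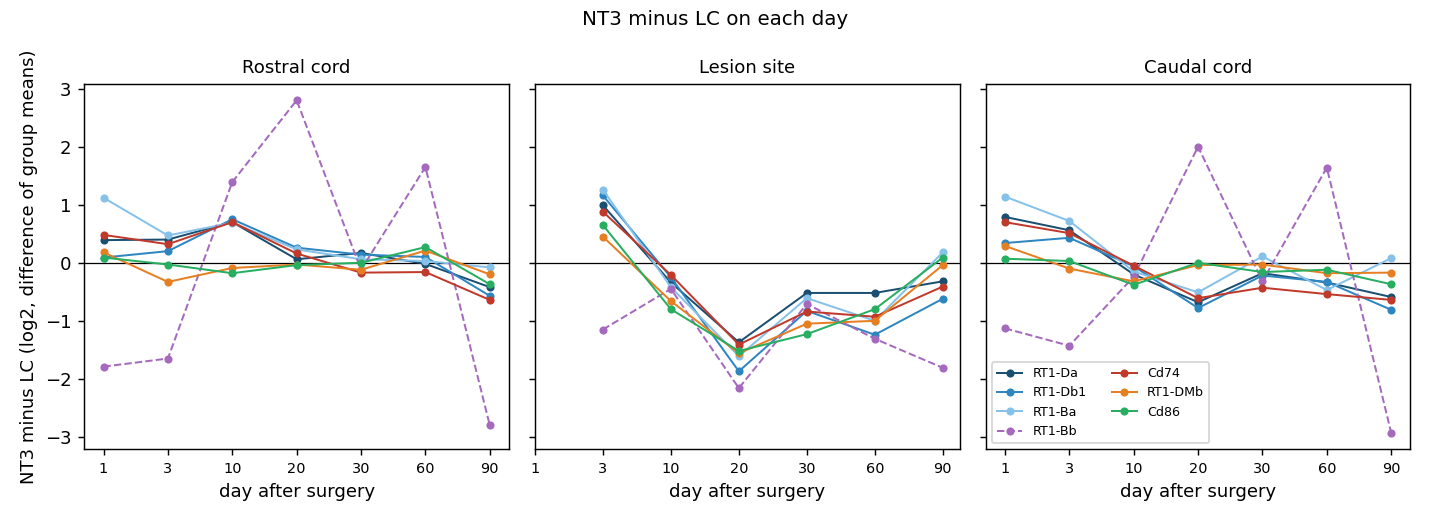
Lines give the mean of NT3 minus the mean of LC (log2) on each day for the 7 genes, by segment. At the lesion site all genes but RT1-Bb (dashed) lie above 0 on day 3 and all 7 lie lowest on day 20, while in rostral and caudal cord most lines stay within 1 of 0.

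Averaged over the 6 days, all 7 members were lower with NT3 than in LC at the lesion site, where 22.9% of all genes were, and the median difference was -0.6 over the members and -0.01 over all genes. RT1-DMb differed by -0.64 (SE 0.05, adjusted p = 1.65e-11), RT1-Db1 by -0.61 (SE 0.1), Cd86 by -0.6 (SE 0.06) and Cd74 by -0.49 (SE 0.07). RT1-Ba (-0.37, SE 0.1) and RT1-Da (-0.34, SE 0.08) differed least, and RT1-Bb by -1.26 (SE 0.27). The second RT1-Bb probe set differed by only -0.11. The difference changed with the day for 6 of 7 members, where 50.6% of all genes changed. For Cd74 the adjusted p of that test was 3.08e-07 and for RT1-DMb 6.36e-09, while RT1-Bb was not called (0.479, and 2.66e-07 with the higher of its probe sets).

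RT1-CE10 was also lower with NT3 at the lesion site (-1.47, SE 0.17). It stood above 9 with NT3 on day 30 alone, but in LC on all arrays of days 30 and 90 and on 2 of 3 arrays of days 3 and 20. With RT1-CE10 as a covariate, 3 members were still called lower with NT3, and RT1-Da (-0.08, adjusted p = 0.762), RT1-Db1 (-0.48), RT1-Ba (-0.49) and RT1-Bb (-0.54) were lost. Over days 10, 30 and 60, on which RT1-CE10 lay on 1 side of 9 in both arms, 6 of 7 members were lower with NT3, all but RT1-Bb (-0.82, adjusted p = 0.0968), and Cd74 differed by -0.66.

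In the neighbouring cord no difference between NT3 and LC was called over the whole course. Averaged over 7 days, 0 of 7 members differed between NT3 and LC rostrally, where 2.77% of all genes did, or caudally, where 9.76% did. At an unadjusted p below 0.05 were RT1-Ba (0.36, SE 0.12, adjusted p = 0.0844) rostrally and Cd86 (-0.13, SE 0.06, adjusted p = 0.135) caudally. RT1-Ba was called without replicate 2 of LC on day 10 or replicate 1 on day 30 rostrally, and Cd86 without replicate 1 of LC on day 10 caudally. Of the members, 0 of 7 were called for a difference of the NT3 effect between the segments, where 0.0997% of all genes were. These differences, rostral minus caudal, lay between 0.03 for RT1-DMb and 0.34 for RT1-Db1, the only one at an unadjusted p below 0.05.

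A change of the NT3 difference with the day was called for 2 of 7 members rostrally, against 28.2% of all genes, and for 2 of 7 caudally, against 7.18%. Rostrally these were RT1-Bb (adjusted p = 0.00159) and RT1-DMb (0.0365), and caudally RT1-Bb (0.0262) and RT1-Da (0.0463). RT1-Da had 10.35, 10.63 and 10.31 with NT3 caudally on day 1, all above 9.36, 9.62 and 9.97 in LC. On day 20 it had 11.41, 11.12 and 10.97 with NT3 caudally, all below 11.43, 11.59 and 12.51 in LC. Cd74 had 10.87, 11.15 and 10.8 with NT3 caudally on day 1, against 9.88, 10.23 and 10.61 in LC, but its test by day was not called (adjusted p = 0.0554). RT1-CE10 also differed between these arms, with caudal means on day 1 of 6.74 with NT3 and 10.59 in LC. The caudal call for RT1-Da was lost without any of 26 single arrays (adjusted p up to 0.102), that for RT1-Bb without replicate 3 of NT3 on day 90, and the rostral call for RT1-DMb without any of 12 (adjusted p up to 0.075). Both RT1-Bb calls were lost with the mean of its probe sets (adjusted p = 0.0732 rostrally, 0.633 caudally) and with RT1-CE10 as a covariate (0.12 and 0.268). With RT1-CE10 as a covariate the caudal RT1-Da call was lost too (0.108), as it was without the filter (0.0501) and with the beta-actin gap as a covariate (0.0502). The caudal RT1-Bb call was also lost with the higher of its probe sets (0.0559). With array weights, 7 members were called rostrally and 6 caudally.

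NT3 and ET could be compared over all days beside the lesion. In the average over the days, 0 of 7 members differed rostrally, where 30.2% of all genes did, and 0 of 7 caudally, where 8.38% did. A change of this difference with the day was not tested, and differences of opposite sign cancel in the average. Rostral RT1-Da averaged 10.34 with NT3 and 9.49 with ET on day 1, but 10.52 and 11.54 on day 90, and the arrays overlapped on neither day. Their differences, NT3 minus ET, lay between -0.45 for RT1-Bb and 0.1 for Cd86 rostrally, and between -0.46 for RT1-Bb and 0.24 for RT1-Ba caudally. At an unadjusted p below 0.05 was Cd86 caudally (0.14, SE 0.06, adjusted p = 0.117). Cd86 was the only member called between ET and LC. It was lower with ET by -0.14 (SE 0.05, adjusted p = 0.0467) rostrally, 1 of 7 members against 14.9% of all genes, and by -0.27 (SE 0.06, adjusted p = 0.0118) caudally, against 1.79%. The rostral call was lost without any of 24 single arrays (adjusted p up to 0.0867), and the caudal one with RT1-CE10 as a covariate.

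**Figure D5:**
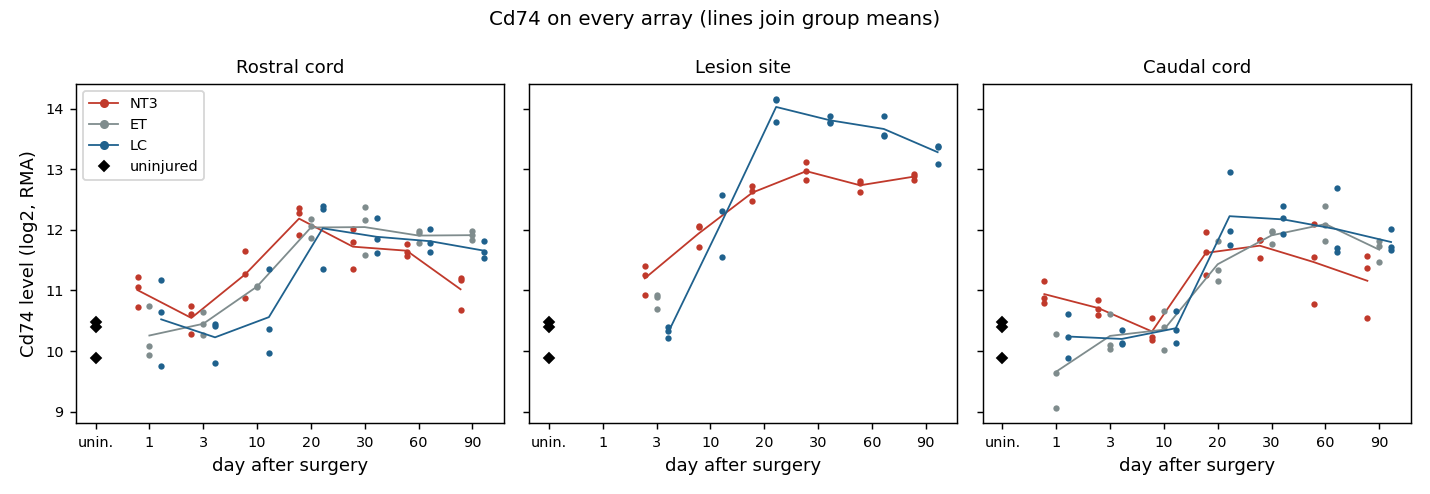
Points give the Cd74 level (log2, RMA) on every array and lines join group means, by segment and day after surgery (days evenly spaced, uninjured cord at the left). In rostral and caudal cord the means of all 3 arms climb between days 10 and 20, with the widest gap between NT3 (10.94) and ET (9.66) caudally on day 1, while at the lesion site LC lies above NT3 from day 20 to day 90. Caudally on day 1 the RT1-CE10 means were 6.74 with NT3 and 10.75 with ET.

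Other genes of the pathway are listed by role. Ciita, the coactivator of class II genes, was higher at the lesion site of LC on days 10 to 30 than in uninjured cord (1.35, SE 0.09), had its highest LC mean on day 20 (8.3, with 6.81 for NT3 and 6.32 for uninjured cord) and was lower with NT3 than in LC over the 6 days (-0.48, SE 0.04). Of 8 genes for Ciita and the factors it works with, 4 were higher and 2 lower in LC on days 10 to 30, with a median of 0.14. That is near the share over all genes, of which 41.9% were higher and 4463 of 12041 lower. RT1-DMa, the partner chain of RT1-DMb, was high early, at 1.58 (SE 0.15) on day 3 and 1.85 (SE 0.13) on days 10 to 30, and lower with NT3 (-0.59, SE 0.06). On day 3 RT1-DMa was higher with NT3 than in LC (0.73, SE 0.15), as RT1-DMb was, whereas Ciita was not called (-0.05, SE 0.11).

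Among genes of endosomal processing is Ctss, the protease cathepsin S that trims the invariant chain. It averaged 13.57 in LC on day 20 and 13.19 in uninjured cord. Averaged over the 6 days it was not called between NT3 and LC (-0.02, SE 0.04), but its difference changed sign. The Ctss mean with NT3 was above LC on day 3 (13.53 and 13.19) and day 90 (13.36 and 12.89), and below it on days 10 to 60 (13.15 and 13.57 on day 20). Ifi30, a thiol reductase of endosomes, differed by 2.77 (SE 0.12) between LC on day 3 and uninjured cord. Of 10 endosomal genes tested, 7 were higher and 1 lower on day 3, when 40.8% of all genes were higher. On days 10 to 30, 9 were higher and 1 lower, when 41.9% of all genes were higher. Cd40, a receptor through which T cells activate presenting cells, differed by 2 (SE 0.09) on days 10 to 30 and by -0.32 (SE 0.05) between NT3 and LC. Cd80, the other ligand of CD28, and Ifng lay below the filter. RT1-DOa and RT1-DOb were not analysed here.

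Of 7 interferon gamma signalling genes tested, 6 were higher in LC on days 10 to 30 than in uninjured cord (median 1.65), and 6 were lower with NT3 than in LC (median -0.26). Of all genes, 41.9% were higher in LC on days 10 to 30 and 22.9% lower with NT3. Irf1, an interferon-induced transcription factor, differed by 2.2 (SE 0.14) between LC on day 3 and uninjured cord and by -0.34 (SE 0.06) between NT3 and LC. All 10 class I genes tested were higher in LC on days 10 to 30, with a median of 1.86, among them the peptide transporter gene Tap1 (2.7, SE 0.11) and B2m (0.8, SE 0.05), the light chain of class I. With NT3, 7 of 10 were lower than in LC, with a median of -0.28. Tap1 differed by -0.52 (SE 0.06) and B2m by -0.04 (SE 0.02), which was not called.

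Markers of cells that can carry class II, or read it, also moved at the lesion site. On days 10 to 30 the 8 macrophage and monocyte markers averaged between 9.91 and 10.25 on the 9 NT3 arrays, between 10.43 and 11.13 on the 9 LC arrays and between 6.88 and 7.08 in uninjured cord. The 7 T cell markers averaged between 6.59 and 7.3 with NT3, between 7.12 and 8.98 in LC and between 5.52 and 5.55 in uninjured cord. Of the markers, 6 of 8 macrophage, 7 of 7 T cell, 3 of 4 dendritic cell and 3 of 4 B cell ones were lower with NT3 over the 6 days, against 22.9% of all genes. Of 6 microglia markers, 1 was lower and 1 higher, with a median of 0.05. On day 3, 4 of 6 microglia markers and 4 of 7 T cell markers were higher with NT3 than in LC, against 7.97% of all genes. The 4 dendritic cell markers averaged between 6.73 and 6.86 with NT3 and between 6.61 and 6.81 in LC on that day, so the arrays overlapped. Macrophage and B cell counts of day 3 are not given here.

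Of the other cell lists at the lesion site, some moved the opposite way. All 6 skeletal muscle markers were higher with NT3 than in LC (median 2.71), as were all 7 neuron markers (1.05), all 5 oligodendrocyte markers (0.7) and all 4 endothelial ones (0.3). Of all 12041 genes, 2291 were higher with NT3. Neutrophil and lymphatic endothelial markers are not described here. Of 5 fibroblast markers 2 were lower and 0 higher (-0.04), and of 6 astrocyte markers 1 was higher and 0 lower (0.27). Muscle markers averaged between 7.81 and 10.22 on NT3 arrays of days 10 to 30, between 4.71 and 6.89 on LC arrays and between 4.95 and 5.03 in uninjured cord. How much of the class II differences goes with these mixtures of cells was not tested. The beta-actin gap ran from 0.89 to 1.24 with NT3 and from 0.69 to 1.28 in LC at the lesion site on days 10 to 30, and from 1.35 to 2.29 in uninjured cord.

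Over the means of all 56 groups, RT1-Da, RT1-Db1, RT1-Ba and Cd74 ran together, with Pearson correlations of 0.93 to 0.98 between them. Cd74 correlated with RT1-Bb at 0.73, with Cd86 at 0.35 and with RT1-DMb at 0.07, while RT1-DMb and Cd86 correlated with each other at 0.56. Many of these groups share a segment, day or arm, so the correlations describe the course and carry no test. Among the tested genes RT1-Da, RT1-Db1 and RT1-Ba were the 3 most like Cd74. The non-members most like it were Mcoln2 (0.88), Cpq (0.87), Abcg3l1 (0.87), Ecm2 (0.86) and Nr4a3 (0.85). Mcoln2 averaged 8.07 at the lesion site of LC on day 20 and 4.64 in uninjured cord, and Ecm2 10.35 and 7.41.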

How the data were processed

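The arrays were grouped by segment, treatment and day from the labels. Images were read with GCOS and values made by RMA in Affymetrix Expression Console, per the submitters' processing notes; which arrays were normalised together is not given in the sources used here. The authors' deposited table holds log2 values of 31099 probe sets, from 2.63 to 15, with array medians from 7.1 to 7.25. The number of arrays limits the precision. Left out were 436 probe sets with several symbols and 9780 with none.

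Linear models of the groups were run in limma 3.58.1 under R 4.3.3, for each segment with the uninjured cords, and for the LC groups or the NT3 and LC groups together between segments. The 32 comparisons were contrasts of group means with two-sided moderated p-values, or a moderated F-test by day, adjusted by Benjamini-Hochberg over 12041 genes. They share controls. The members, gene lists and tests were chosen with earlier results of these data known. Named are the 7 members, 13 pathway genes where measured, RT1-CE10 and the 5 non-members most like Cd74. Alternatives varied filter, normalization, probe sets, fit, weights, prior, replicate block and covariates, and left out each array in turn. The steps were tested on simulated data.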

Additional observations from a re-analysis of the deposited data

Results flagged for a closer look

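The difference between NT3 and LC changed with the day, by limma's test of that change, for 10 gene and segment pairs. At the lesion site these were RT1-Da (adjusted p = 6.64e-06), RT1-Db1 (8.46e-07), RT1-Ba (1.06e-06), Cd74 (3.08e-07), RT1-DMb (6.36e-09) and Cd86 (2.48e-08), all 6 with NT3 above LC on day 3 and below it on days 10 to 60. Rostrally they were RT1-Bb (0.00159) and RT1-DMb (0.0365). RT1-DMb lay at -0.33 on day 3 and 0.21 on day 60, while RT1-Bb ran from -2.8 on day 90 to 2.8 on day 20. Caudally they were RT1-Da (0.0463), at 0.79 on day 1 and -0.68 on day 20, and RT1-Bb (0.0262), at 2 on day 20 and -2.93 on day 90. On both days the RT1-Bb probe set in use read below 6 on at least 1 array of 1 arm. The rostral and caudal RT1-Bb calls were each lost with the mean of its probe sets or with RT1-CE10 as a covariate. The caudal RT1-Da call was also lost with RT1-CE10 as a covariate (adjusted p = 0.108).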

How the results depend on the processing

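Of 224 member results, all kept direction and side of the threshold with a filter at the 60th percentile or a trended and robust prior, 221 with quantile normalization, 220 with 75th percentile scaling and 222 without the 3 arrays that stood apart. With array weights 196 did and 27 more passed; with RT1-CE10 as a covariate 195 did and 27 were lost. The cause of the shifts below was not tested. Members called with RT1-CE10 as a covariate numbered 2 for rostral LC on days 1 and 3, 1 for rostral NT3 minus LC by day, 2 for LC on day 3, 3 for NT3 minus LC and 2 for ET minus LC at the lesion site, and 0 for late caudal LC (days 60 and 90 minus days 10 to 30), caudal NT3 minus LC by day and caudal ET minus LC. Array weights gave 2 for late rostral LC, 1, 7, 1 and 3 for rostral NT3 minus LC, the same by day, NT3 minus ET and ET minus LC, 3 for late caudal LC, 2, 6 and 3 for caudal NT3 minus LC, by day and ET minus LC, and 1 for LC rostral minus caudal. Rostral ET minus LC had 0 members without the filter, with the mean of probe sets, in one fit, with the replicate block or with the beta-actin covariate. Caudal NT3 minus LC by day had 1 without the filter, with the mean of probe sets, the block or the covariate, and 4 in one fit. The mean of probe sets gave 1 for rostral NT3 minus LC by day, and one fit gave 3 for ET minus LC at the lesion site.

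The higher RT1-Bb probe set, chosen after seeing the data, turned RT1-Bb to 0.79 for rostral LC on days 10 to 30 minus days 1 and 3 and to 1.45 for NT3 minus LC on day 3 at the lesion site. It gave 1 member for rostral NT3 minus ET, caudal NT3 minus LC and the caudal test by day. Leaving out 1 array at a time gave 0 to 1 members for rostral and caudal NT3 minus LC, 1 to 4 for both tests by day, 0 to 3 for rostral ET minus LC, 3 to 5 for LC and for ET minus LC on day 3 at the lesion site, and 0 to 2 for late caudal LC, with none reversed. Same-numbered rostral and caudal arrays had residuals correlated above 0.1 in 32 of 62 pairs (median 0.11), against 36 of 124 differently numbered ones (median -0.01). This is a hint of pairing, but not every pair passed 0.1 and the labels give none. The replicate block kept 220 of 224 member results, lost Cd86 for rostral ET minus LC (adjusted p = 0.0523) and RT1-Da for caudal NT3 minus LC by day (0.0536), and gained, at the lesion site of LC against neighbouring cord, Cd86 on days 10 to 30 (0.0487) and RT1-DMb on days 60 and 90 (0.0492).

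Over all genes, RT1-CE10 as a covariate changed the calls of rostral LC to 5014 (8157 without it), 4385 (7281) and 3247 (6453) in the 3 periods, of rostral NT3 minus LC to 9 (333), by day to 1755 (3399) and of NT3 minus ET to 862 (3633). At the lesion site NT3 minus LC had 1463 (5045) and ET minus LC 1718 (2794). Caudal LC had 4053 (7829), 4688 (7427) and 2903 (6820), late LC 1405 (2424), NT3 minus LC 1 (1175), by day 369 (865), NT3 minus ET 6 (1009) and ET minus LC 0 (422). Array weights gave 4536 (1793) for late rostral LC, 1639, 9591 and 5804 for rostral NT3 minus LC, by day and NT3 minus ET, 10114 (6095), 3471 (2142) and 4234 (2794) for lesion by day, day 3 NT3 and day 3 ET, 2973, 8039, 2785 and 1722 for caudal NT3 minus LC, by day, NT3 minus ET and ET minus LC, and 220 (23) and 107 (12) between segments for LC and the NT3 effect. Days with RT1-CE10 alike, chosen after seeing the data, gave 58 rostrally and 236 caudally for NT3 minus LC. Caudal ET minus LC had 640 with the beta-actin covariate and 271 with averaged probe sets, LC rostral minus caudal 35 with the mean of probe sets and 50 in one fit, and the NT3 effect 19 with the mean, 4 with the block and 7 with the beta-actin covariate.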
